A study of Homo sapiens with 8 samples.

Results

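The integrated stress response of LNCaP cells was followed through 10 of its transcription factors, feedback proteins and effector enzymes: ATF4, DDIT3 (the gene of CHOP), ATF3, ATF5, CEBPB, CEBPG, PPP1R15A (GADD34), TRIB3, CHAC1 and SESN2. The genes were chosen by name for their place in this pathway, with earlier results of these data known, so counts over them are descriptions. They are 10 of the 36474 genes in the count table, and all 10 were among the 21071 genes tested. LNCaP is an established human prostate cancer line that came from a metastasis. The cells had been starved for 6 to 12 h without serum or calcium before recombinant human asporin (ASPN, a small secreted matrix protein) was given at 100 ng/mL. The groups were 0 h (2 libraries, a further one having been left out by the authors for quality), 12 h with ASPN (3 libraries) and 24 h with ASPN (3 libraries). The same range of starvation is given for every group, and the exact time for each is not stated. Cells held in the medium without ASPN for 12 or 24 h were not analysed here. The effects of ASPN and of time in that medium therefore cannot be told apart.

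The kinases PERK, GCN2, PKR and HRI answer ER stress, amino acid shortage, double-stranded RNA and haem shortage or mitochondrial stress by phosphorylating the translation factor eIF2. Bulk protein synthesis then slows, while short upstream reading frames let the ATF4 message be translated more, so the level of ATF4 mRNA is not a measure of ATF4 protein. ATF4, often paired with C/EBP-type partners, switches on genes of amino acid supply and of feedback, and CHOP, itself a target of ATF4, adds genes linked to cell death when the stress lasts.

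At 24 h the transcripts of 9 of the 10 regulators fell compared with 0 h, where 8.49% of all genes tested were lower, and DDIT3 fell furthest, 1.99-fold. TRIB3, ATF3, SESN2, CHAC1 and CEBPB fell between 1.51-fold and 1.74-fold, CEBPG 1.37-fold, PPP1R15A 1.31-fold and ATF4 itself 1.23-fold. ATF5 was the exception, with a log2 change of 0.08 (SE 0.0559, edgeR adjusted p 0.406). At 12 h, 8 of the 10 had already fallen, where 6.75% of all genes were lower.

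Short stretches around 2 kinds of binding motif, letters that ATF4-type factors recognise, are shown as a description. Whether these sites bear on the changes was not tested. Windows from 250 bases before to 50 after the start of each RefSeq transcript (GRCh38.p14) were searched on both strands. All 10 genes had windows to search, 19 in total, and some windows of the same gene overlap. The core of the C/EBP-ATF response element, TGATGNAA, lay in 3 of the 19 windows, each of another gene, and the cyclic AMP response element, TGACGTCA, in 1 of the 19. Of all 35114 windows, 3.62% held the first and 1.85% the second. The windows of ATF4, DDIT3, ATF5, TRIB3, CEBPB and SESN2 held neither. Each stretch below is 30 bases of the plus strand, with the match in capitals.

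ATF3, chr1:212565205-212565234: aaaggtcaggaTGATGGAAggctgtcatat
CHAC1, chr15:40953251-40953280: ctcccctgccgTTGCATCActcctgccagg
CEBPG, chr19:33374060-33374089: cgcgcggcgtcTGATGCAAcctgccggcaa
PPP1R15A, chr19:48872352-48872381: gcctctcttcgTGACGTCAgcacgccgggc

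The match began 191 bases before the RefSeq transcript start of its window in ATF3, 209 in CHAC1, 42 in CEBPG and 58 in PPP1R15A. That of CHAC1 read on the reverse strand. The matches of CHAC1 and CEBPG lie inside the gene spans given below, which begin at 40952962 and 33373685. ATF3 and CEBPG each had a further window without a match. By exact matches only, the ER stress element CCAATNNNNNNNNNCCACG was in 0.08% of all windows and in 0 of those of the 10 genes. The windows of DDIT3 held ccaatgccggcgtgccact, which differs from that element only in the last letter. A match describes letters in these windows. Inexact sites, and sites outside the windows, were not searched.

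The libraries held 73406825 to 96962135 counts, mitochondrial genes took 6.20% to 7.32% of them, and the biological coefficient of variation was 5.59%. Levels are given as CPM, the counts of a gene relative to the TMM-scaled total of its library. All 10 LNCaP markers were present, and their summed level was 4860 to 4970 CPM at 0 h, 5420 to 5450 CPM at 12 h and 5410 to 5610 CPM at 24 h. These markers did not move alike. At 0, 12 and 24 h KLK3 had means of 965, 1360 and 1190 CPM. FOLH1 was at 1800, 1700 and 1970 CPM and KRT18 at 434, 422 and 392 CPM. Stromal markers (9 of 10 listed in the table, 7 above 3 counts in a library) summed to 37.5 to 39.5, 36.2 to 38.5 and 32.5 to 35.0 CPM in the same order, basal markers (4 of 5 listed, 3 above 3 counts) to 2.18 to 3.09 CPM and immune markers (3 of 6 above 3 counts) to 0.0779 to 0.371 CPM over all libraries. Most of the stromal sum came from COL1A1 (means 19.5, 20.3 and 19.1 CPM at 0, 12 and 24 h) and VWF (16, 14.4 and 12.3 CPM). The part of the marker differences in the results was not tested. In bulk RNA, fewer cells that express a gene and less of its RNA per cell cannot be told apart.

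**Figure D1:**
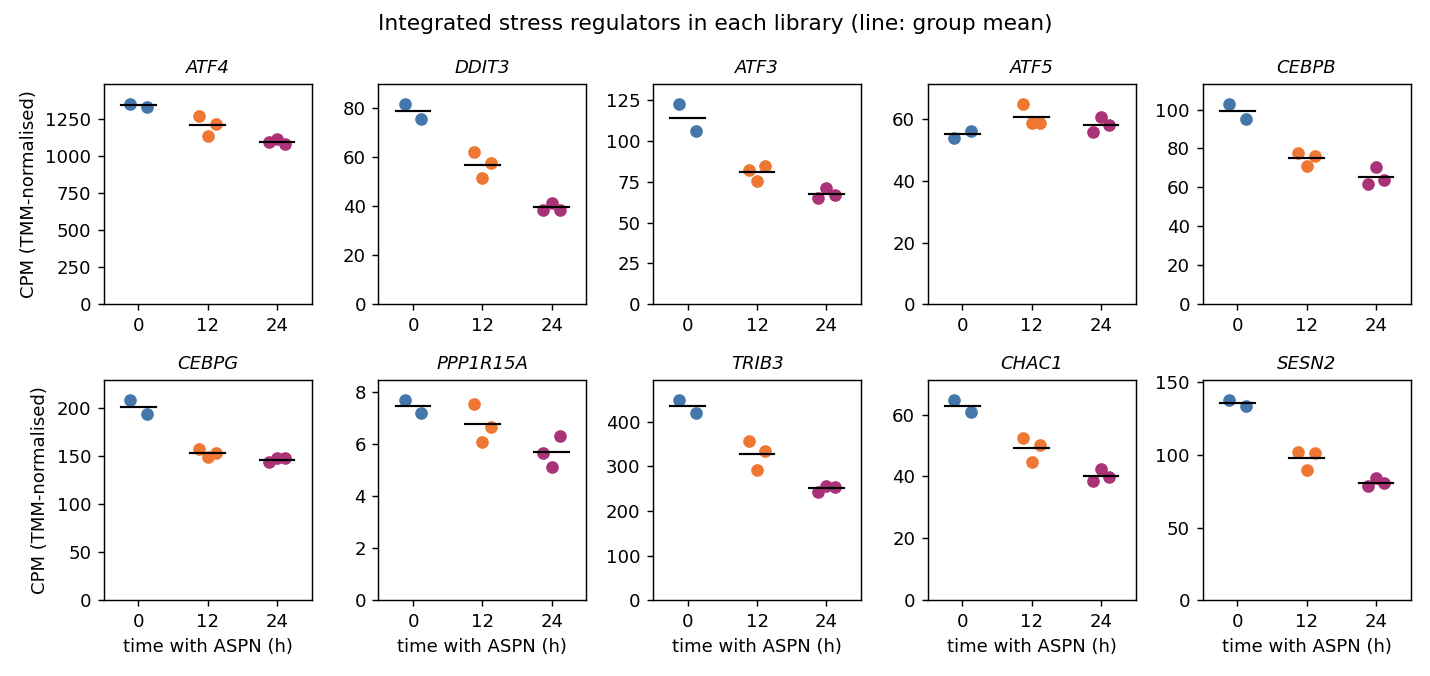
TMM-normalised CPM of each regulator (y axes, from 0, a scale for each gene) against time with ASPN in hours (x axes), with a point for each library and a line at the group mean. At 24 h, 9 genes lie below both 0 h libraries, and ATF5 overlaps them.

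ATF4, the factor at the head of the response (GRCh38 chr22:39519695-39522683, plus strand), was at 1350 and 1330 CPM in the 0 h libraries. It was at 1270, 1130 and 1210 CPM at 12 h and at 1090, 1110 and 1080 CPM at 24 h. Each later group lay wholly below the one before it. ATF4 fell by 0.16 on the log2 scale at 12 h (SE 0.0434, edgeR adjusted p 0.0151) and by 0.30 at 24 h (SE 0.0433, adjusted p 5.08e-06). The 12 h call was lost without either 0 h library and without replicate 2 or 3 of 12 h, with adjusted p values of 0.146, 0.0542, 0.0607 and 0.0531, while the 24 h call was kept whichever library was left out. Between 12 h and 24 h ATF4 fell by 0.14 (SE 0.0390, adjusted p 0.0407), and this call was lost without replicate 1 or 3 of 12 h (0.109 and 0.145) or any 24 h replicate (0.176, 0.112 and 0.216). ATF4 has processed pseudogenes with which it could share reads. ATF4P3 is 97.5% identical to it over 1056 bases and was assigned 700 counts in the 8 libraries, ATF4P4 146, and ATF4 805631, and the exchange of reads between them was not tested.

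DDIT3 encodes CHOP, a bZIP factor of prolonged stress (chr12:57516588-57521737, minus strand). Its level was 81.8 and 75.7 CPM at 0 h, 62.0, 51.4 and 57.5 CPM at 12 h, and 38.5, 41.3 and 38.6 CPM at 24 h. The groups did not overlap, and the highest 24 h library was below the lowest at 12 h. DDIT3 fell by 0.47 on the log2 scale at 12 h (SE 0.0608, edgeR adjusted p 2.52e-06) and by 1.00 at 24 h (SE 0.0611, adjusted p 2.33e-13), rank 8 of the 21071 genes by p. It also fell by 0.53 between 12 h and 24 h (SE 0.0559, adjusted p 3.93e-07).

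DDIT3 lies across other genes. Of its 1307 exon bases, 355 (27.2%) are shared with MARS1, a methionyl-tRNA synthetase gene on the opposite strand, and 58 (4.4%) with MBD6, also opposite. Whether the counting used strand was not stated, so reads in the shared bases cannot be assigned with certainty. MARS1 was at 334 and 337 CPM at 0 h, 316, 285 and 298 CPM at 12 h, and 281, 289 and 282 CPM at 24 h. It fell by 0.24 on the log2 scale at 24 h (SE 0.0448, edgeR adjusted p 0.000209), a smaller change than that of DDIT3, and MBD6 had a log2 change of -0.07 (adjusted p 0.417). The difference between DDIT3 and MARS1 was not tested.

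**Figure D2:**
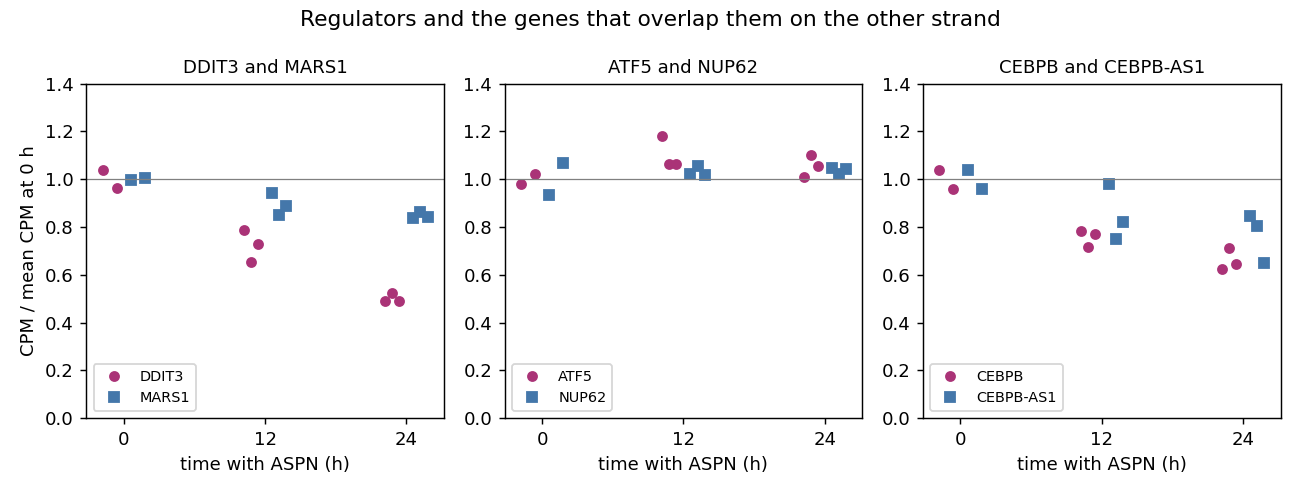
Level of 3 regulators and of a gene that overlaps each on the opposite strand, as CPM divided by the gene's mean CPM at 0 h (y axis) against time with ASPN in hours (x axis), 1 point per library. DDIT3 is well below MARS1 at 24 h, while ATF5 and NUP62 both stay near 1.

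ATF3, a stress-induced bZIP factor that represses and activates targets (chr1:212565334-212620777), was at 123 and 106 CPM at 0 h, 82.6, 75.5 and 84.5 CPM at 12 h, and 65.3, 71.5 and 66.8 CPM at 24 h. Every later library was below both 0 h libraries, which differed from each other by more than those of any later group. ATF3 fell by 0.50 on the log2 scale at 12 h (SE 0.0582, edgeR adjusted p 5.72e-07) and by 0.76 at 24 h (SE 0.0583, adjusted p 6.21e-11). The log2 change of -0.25 between 12 h and 24 h (adjusted p 0.00556) was no longer past the threshold without replicate 3 of 12 h (0.0552) or replicate 1 or 3 of 24 h (0.0703 and 0.0535).

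CEBPB, a C/EBP factor active in stress and inflammation (chr20:50190830-50192668), was at 103 and 95.1 CPM at 0 h, 77.6, 71.0 and 76.3 CPM at 12 h, and 62.0, 70.6 and 63.9 CPM at 24 h. The 3 groups did not overlap, though the highest 24 h library came close to the lowest at 12 h. CEBPB fell by 0.40 at 12 h (SE 0.0552, edgeR adjusted p 6.57e-06) and by 0.59 at 24 h (SE 0.0552, adjusted p 1.52e-09), the latter just past a 1.5-fold change. Without replicate 1 of 0 h, replicate 1 of 24 h or replicate 3 of 24 h the 24 h change was -0.54, -0.56 and -0.58, still past the test but short of 1.5-fold. The change of -0.19 from 12 h to 24 h (adjusted p 0.0271) was lost without replicate 1 or 3 of 12 h (0.0505 and 0.129) or replicate 1 or 3 of 24 h (0.227 and 0.179). CEBPB-AS1, on the opposite strand, shares 231 bases (12.6%) of CEBPB and had a mean of only 2.96 CPM at 0 h and 2.28 CPM at 24 h.

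CEBPG, a partner with which ATF4 forms heterodimers (chr19:33373685-33382686), was at 209 and 194 CPM at 0 h, 158, 149 and 153 CPM at 12 h, and 144, 148 and 148 CPM at 24 h. It fell by 0.40 on the log2 scale at 12 h (SE 0.0458, edgeR adjusted p 4.61e-07) and by 0.46 at 24 h (SE 0.0458, adjusted p 7.09e-09). From 12 h to 24 h its log2 change was -0.06 (SE 0.0414, adjusted p 0.564), although the libraries did not overlap.

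ATF5, a relative of ATF4 that is also controlled by upstream reading frames (chr19:49928702-49933935), was at 53.9 and 56.3 CPM at 0 h, 65.0, 58.7 and 58.6 CPM at 12 h, and 55.7, 60.6 and 58.1 CPM at 24 h. The 12 h libraries were all above the 0 h libraries, while the 24 h libraries overlapped both groups. None of its changes passed the test: the log2 change was 0.14 at 12 h (SE 0.0560, edgeR adjusted p 0.104), 0.08 at 24 h and -0.06 between them (adjusted p 0.644). NUP62, a nuclear pore gene on the opposite strand, shares 565 (19.5%) of the exon bases of ATF5, and its log2 change at 24 h was 0.05 (adjusted p 0.571).

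TRIB3, a pseudokinase that ATF4 and CHOP induce and that restrains them (chr20:362835-397559), was at 449 and 420 CPM at 0 h, 356, 291 and 335 CPM at 12 h, and 242, 256 and 253 CPM at 24 h. The groups did not overlap, though the 12 h libraries were spread widely, from 291 to 356 CPM. TRIB3 fell by 0.41 at 12 h (SE 0.0571, edgeR adjusted p 1.64e-05), by 0.80 at 24 h (SE 0.0570, adjusted p 9.7e-11) and by 0.39 between 12 h and 24 h (SE 0.0517, adjusted p 4.36e-05), all on the log2 scale.

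PPP1R15A encodes GADD34, which brings a phosphatase to eIF2 and so ends the response (chr19:48872421-48876058). It was the least counted of the 10, with 462 to 677 counts per library, and its level was 7.69 and 7.18 CPM at 0 h, 7.53, 6.07 and 6.64 CPM at 12 h, and 5.65, 5.12 and 6.29 CPM at 24 h. The 12 h libraries overlapped both other groups, and the 24 h libraries were all below 0 h. PPP1R15A fell by 0.39 at 24 h (SE 0.112, edgeR adjusted p 0.0138), a call lost without replicate 1 of 0 h (0.177) or replicate 2 of 24 h (0.0876), and in the fit with a replicate block (0.108), which also lacks the 0 h library without a number (0.0348 without that library and no block). At 12 h the log2 change was -0.14 (adjusted p 0.491).

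CHAC1, which degrades glutathione (chr15:40952962-40956512), was at 64.8 and 60.9 CPM at 0 h, 52.5, 44.6 and 50.3 CPM at 12 h, and 38.4, 42.4 and 39.9 CPM at 24 h. SESN2, a leucine-binding inhibitor of mTORC1 signalling (chr1:28259518-28282491), was at 138 and 134, then 102, 89.7 and 101, then 78.5, 83.9 and 80.5 CPM. Neither gene had overlapping groups. CHAC1 fell by 0.35 at 12 h (SE 0.0609, edgeR adjusted p 0.000131) and by 0.64 at 24 h (SE 0.0610, adjusted p 2.37e-09), and SESN2 by 0.48 (SE 0.0515, adjusted p 1.32e-07) and 0.75 (SE 0.0515, adjusted p 4.18e-12). Both also fell from 12 h to 24 h, by 0.29 (adjusted p 0.00227) and 0.27 (adjusted p 0.000906).

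**Figure D3:**
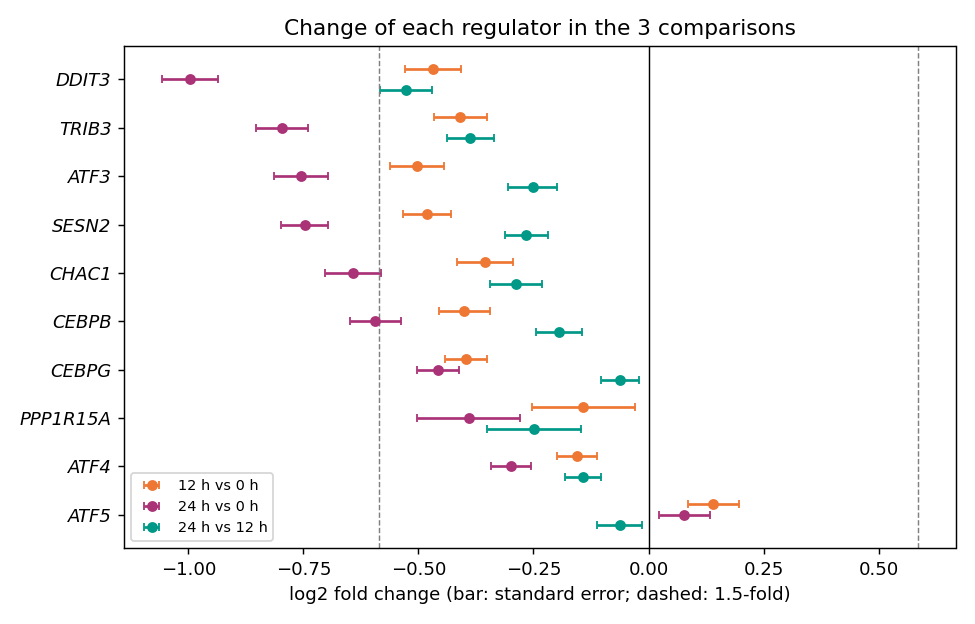
Log2 fold change of each regulator (x axis) with its standard error in the 3 comparisons, genes ordered by their change at 24 h, and dashed lines at a 1.5-fold change. At 24 h against 0 h, 6 genes lie past the lower line and ATF5 lies just above 0.

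Counted over the set, 8 of 10 fell at 12 h, where 6.75% of all genes tested were lower and 4.85% higher at an adjusted p of at most 0.05, and 0 of the 10 rose. At 24 h, 9 of 10 fell (8.49% of all genes were lower and 7.82% higher) and 0 rose. Between 12 h and 24 h, 7 of 10 fell (1.61% lower, 1.12% higher), ATF5, CEBPG and PPP1R15A being the others. That count was 4 without replicate 3 of 12 h, replicate 1 of 24 h or replicate 3 of 24 h. With a fold change of at least 1.5 as well, 6 members passed at 24 h (5 without replicate 1 of 0 h or replicate 1 or 3 of 24 h) against 1.35% of all genes, 0 at 12 h against 0.565%, and 0 between 12 h and 24 h against 0.104%. The count at 12 h was 1, ATF3, without the 0 h library that has no number, and that between 12 h and 24 h was 1, DDIT3, without replicate 2 of 12 h. The 10 genes had a median log2 change of -0.40 at 12 h, -0.62 at 24 h and -0.25 between them, where all genes had medians within 0.003 of 0. When the test was made against a 1.5-fold change itself, 2 members passed at 24 h, TRIB3 and DDIT3, with 4 at an unadjusted p under 0.05, where 0.171% of all genes were lower by this test. By groups that did not overlap, 8 members were lower at 12 h (19.6% of all genes) and 1, ATF5, was higher (17.3%). Likewise 9 were lower at 24 h than at 0 h (21.7%) and 8 lower at 24 h than at 12 h (9.33%). Both comparisons with 0 h use the same 2 libraries.

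Exon lengths came from GENCODE 44, whose gene models differ in version from those in the table for ATF4, ATF3, ATF5 and PPP1R15A, so levels per length are approximate. Per kilobase of exon, ATF4 was the most abundant of the set at every time, at 513, 461 and 418 CPM per kb at 0, 12 and 24 h. TRIB3 came next at 132, 99.5 and 76.0 CPM per kb, and PPP1R15A was last at 2.17, 1.97 and 1.66 CPM per kb. At 0 h the order from position 3 was DDIT3 (60.3), CEBPB (53.8), CEBPG (49.7), SESN2 (39.3), CHAC1 (30.6), ATF3 (28.6) and ATF5 (19.0 CPM per kb), and CHAC1 and ATF3 were the only neighbours whose libraries overlapped. At 24 h DDIT3, at 30.2 CPM per kb, stood in position 5, below CEBPG (36.2) and CEBPB (35.6), whose libraries overlapped, and ATF5, at 20.1, stood in position 7 and overlapped CHAC1 (19.6).

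Relatives of the effectors did not follow a single course. SESN1 and SESN3, the other sestrins, had log2 changes of -0.06 (edgeR adjusted p 0.478) and 0.08 (0.329) at 24 h. TRIB1, another tribbles pseudokinase, had 0.03 (0.814), and CHAC2 and GGCT, other enzymes of glutathione breakdown, had 0.12 (0.670) and -0.08 (0.333). PPP1R15B, the constitutive counterpart of GADD34, fell by 0.31 (SE 0.0531, adjusted p 6.51e-05). The differences between each regulator and its relatives were not tested.

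**Figure D4:**
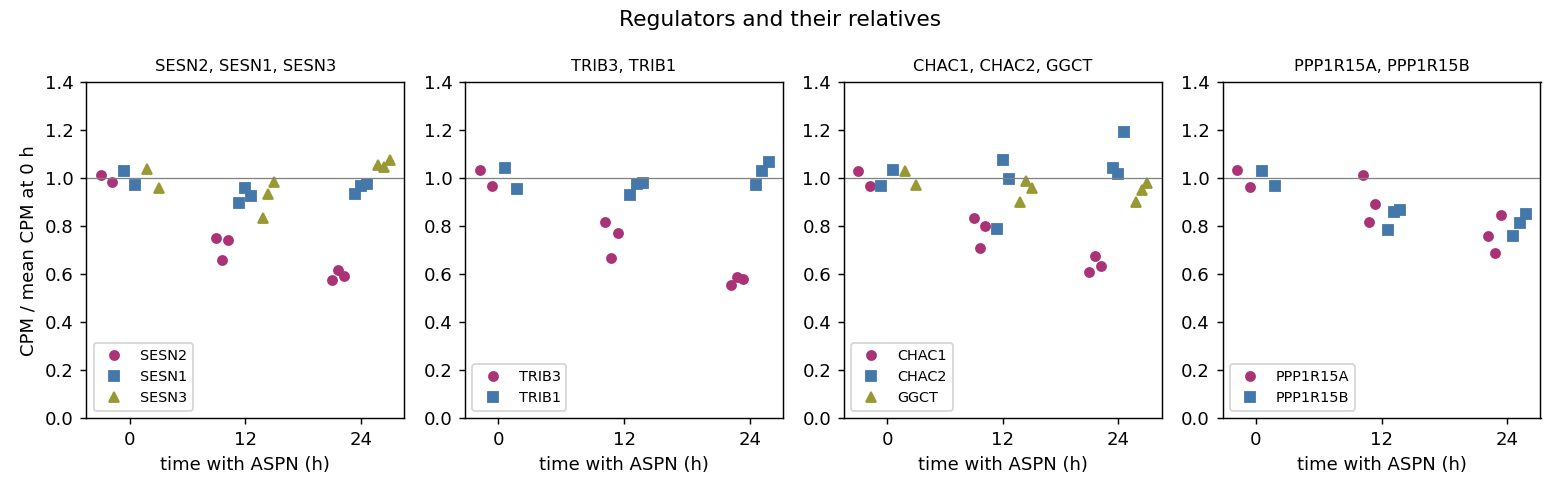
Level of SESN2, TRIB3, CHAC1 and PPP1R15A with related genes, as CPM divided by the gene's mean CPM at 0 h (y axis) against time with ASPN in hours (x axis), 1 point per library. At 24 h SESN2, TRIB3 and CHAC1 lie below each of the relatives drawn beside them, and PPP1R15A and PPP1R15B overlap.

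Of the 22 eIF2 control genes tested, 6 were lower and 2 higher at 24 h, and their median log2 change was -0.05. Of all genes tested, 8.49% were lower and 7.82% higher at 24 h. Among the kinases, EIF2AK3 (PERK) fell by 0.47 (SE 0.0596, edgeR adjusted p 6e-07) and EIF2AK4 (GCN2) rose by 0.19 (SE 0.0461, adjusted p 0.00285), while EIF2AK1 (HRI) had a log2 change of 0.01 and EIF2AK2 (PKR) of -0.05. EIF2B5, a subunit of the exchange factor of eIF2, rose by 0.16 (adjusted p 0.0248). DNAJC3, an inhibitor of PERK and PKR, fell by 0.67. Of 28 tested genes in the list of other bZIP factors, 9 were lower and 2 higher. The list includes CEBPZ, which has a C/EBP-type name but no bZIP domain (log2 change 0.05, edgeR adjusted p 0.727). MAFG was at -0.37 and NFE2L1 at -0.31. HLF was at 1.03, from 4.44 to 9.10 CPM, and CEBPA, another C/EBP factor, at 0.31 (adjusted p 0.00882), from 12.8 to 15.8 CPM.

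Genes in the lists named for ATF4 targets were mostly lower at 24 h, where 8.49% of all genes tested were lower and 7.82% higher. Whether each gene of these lists is an ATF4 target was not tested. All 13 tested genes of the tRNA charging list fell, with WARS1, GARS1 and SARS1 at -0.75, -0.52 and -0.41, and all 9 tested amino acid transport genes fell, with SLC7A11, the cystine carrier, at -0.95, and SLC3A2 and SLC1A5 at -0.54 and -0.50. Of 15 genes of amino acid synthesis, 11 fell, with CTH, MTHFD2 and GOT1 at -0.87, -0.65 and -0.51, and 1, CBS, rose by 0.23. Of 19 genes of stress adaptation, 15 fell, with NIBAN1, HERPUD1 and MAP1LC3B at -0.98, -0.81 and -0.64, and 1, SQSTM1, rose by 0.20. The median log2 changes of these lists were -0.29, -0.50, -0.36 and -0.34.

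Of 12 tested genes in the list named for CHOP targets and cell death, 7 fell, and 1, MCL1, rose by 0.19. ERO1B, PMAIP1 and TNFRSF10B were at -0.72, -0.48 and -0.42. Whether each gene of this list is a CHOP target was not tested. Of 18 genes of the ATF6 and XBP1 arms of the unfolded protein response, 17 fell, with SEL1L, HSPA5 and HYOU1 at -0.90, -0.77 and -0.72. Of 10 p53 targets, 7 fell, with CDKN1A, MDM2 and ZMAT3 at -0.81, -0.56 and -0.50. Of 7 genes of the mitochondrial unfolded protein response, 4 fell, with HSPA9, LONP1 and YME1L1 at -0.30, -0.25 and -0.20. Of 13 relatives and partners of the members, 1 fell, SEC13, by 0.30, and 1 rose, AKT1, by 0.20. The log2 changes of these lists are at 24 h against 0 h, where 8.49% of all genes tested were lower and 7.82% higher.

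Of the 166 genes tested in the 11 lists, 88 were lower and 5 (3.01%) higher at 12 h, where 6.75% and 4.85% of all genes were. At 24 h these were 99 (59.6%) and 8 (4.82%), against 8.49% and 7.82% of all genes, and at 24 h against 12 h 37 (22.3%) and 5 (3.01%), against 1.61% and 1.12%. The lists too were chosen with earlier results known. The count of lower genes at 12 h was 55 without replicate 1 of 0 h. From 12 h to 24 h it was 23 without replicate 3 of 12 h, 18 without replicate 1 of 24 h and 24 without replicate 3 of 24 h. The smaller counts of higher genes moved too: at 12 h to 1 without replicate 1 of 0 h and 8 without replicate 2 of 12 h, and at 24 h to 2 without replicate 1 of 0 h and 5 without replicate 2 of 24 h. From 12 h to 24 h they were 3 without replicate 2 or 3 of 12 h, and 2, 0 and 1 without replicates 1, 2 and 3 of 24 h.

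**Figure D5:**
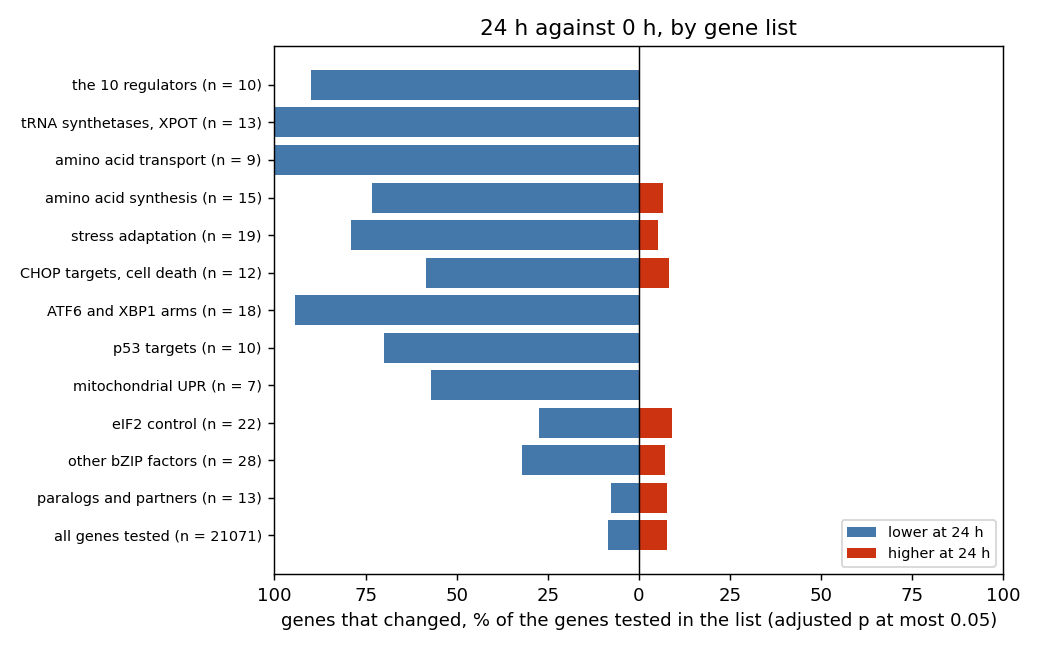
Share of the genes tested in each list that were lower (left) or higher (right) at 24 h than at 0 h, in percent (x axis), at an adjusted p of at most 0.05, with all 21071 genes tested in the last bar. The bars of tRNA charging and amino acid transport reach 100% on the lower side, and that of all genes 8.49%.

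The genes whose log2 CPM over the 8 libraries was most like that of ATF4, among 13466 well-counted genes, were GTPBP2, GRK2, ADM2, TRIB3 and NFE2L1, with Pearson's r of 0.992, 0.990, 0.990, 0.989 and 0.987. For DDIT3 they were SLC7A5, EOLA1, TRIB3, GMPPB and TRIM5, with r of 0.996, 0.995, 0.994, 0.993 and 0.992. Among the members, CHAC1 was at 0.987 with ATF4 and 0.989 with DDIT3, and ATF5 at -0.144 and -0.198. These are descriptions over libraries that share 3 time points.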

How the data were processed

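RNA of 8 LNCaP libraries was sequenced in pairs of reads. The deposited values are raw counts of reads per gene; the authors trimmed with Cutadapt, aligned to GRCh38 with STAR and counted GENCODE genes with featureCounts, with strand, pair and multi-mapping options not given in the sources used here. Groups came from the column names, and 1 column of 0 h has a number that no label of 0 h carries, so it was used without a number. The counts went into the robust quasi-likelihood test of edgeR 4.0.16 (R 4.3.3) after TMM scaling and filterByExpr, all 8 libraries sharing 1 fit with a coefficient per time. Genes rose or fell where p, adjusted by Benjamini-Hochberg over 21071 genes, was at most 0.05; called genes also changed at least 1.5-fold. Replicate pairs differed beyond sampling noise (chi-square per degree of freedom 5.32 to 15.2). The labels call the replicates biological, and the paper's methods describe plating in triplicate in multi-well plates. Separate cultures or experiments are not described, so p values measure the spread between these libraries, which may be that between wells. The members and lists were chosen with earlier results of these data known. Named beside the members were the 3 changed genes of each list with the smallest p at 24 h and a mean of at least 100 counts, overlapping genes, the 5 genes most like ATF4 and DDIT3, and, chosen after their values were seen, the eIF2 kinases, the relatives and the list genes that rose. Exon overlaps came from GENCODE 44 and promoter windows from RefSeq. The fit was tested on simulated counts. Alternatives were RLE and upper-quartile scaling, other filters, DESeq2 1.42.0, glmTreat, the compared times alone, protein-coding genes alone, a replicate block and leaving out each library. A count of 0 allows up to 0.0309 to 0.0409 CPM (3 counts), for counting error only.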

Additional observations from a re-analysis of the deposited data

How the results depend on the processing

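Of 480 values of single members under 16 alternatives in 3 comparisons, 459 kept their direction and side of the threshold, 21 kept the direction and lost the call, and 0 reversed. The losses were in ATF4, ATF3, CEBPB and PPP1R15A. The 480 values include results that had not passed in the main fit and so had no call to lose. ATF5 had none in any comparison, and PPP1R15A none at 12 h or from 12 h to 24 h. CEBPG had none from 12 h to 24 h. The cause of the losses was not tested; leaving out a library also leaves fewer samples. Testing against a 1.5-fold change left 2 of 6 members at 24 h (0.171% of all genes). The fit with a replicate block also drops the 0 h library without a number. In it 1 member in place of 0 passed the 1.5-fold limit at 12 h, ATF4 at 12 h had an adjusted p of 0.172, and 7 members fell at 12 h and 8 at 24 h. The same 7 libraries without the block gave 1, 0.0542, 7 and 9. The numbers were not taken to pair the samples: same-numbered 12 h and 24 h libraries had deviations correlated at 0.026 to 0.102 and others at -0.078 to 0.051, and not every library was most like its own number. Fitting the compared times alone gave ATF4 at 12 h an adjusted p of 0.0688. Leaving out 1 library at a time gave 0 to 1 members past 1.5-fold at 12 h, 5 to 6 at 24 h and 0 to 1 between 12 h and 24 h, and 4 to 7 members that fell between 12 h and 24 h. For the lists it gave 55 to 91 lower and 1 to 8 higher genes at 12 h, 87 to 99 lower and 2 to 10 higher at 24 h, and 18 to 44 lower and 0 to 6 higher between 12 h and 24 h. PPP1R15A, with the fewest counts, had the widest standard error, 0.112.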
